A study of Homo sapiens with 3 samples.

Results

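The mRNA levels of HCC827 were compared with those of BEAS-2B across all genes of the deposited mRNA table. BEAS-2B derives from normal bronchial epithelium that was immortalized, and HCC827 is a lung adenocarcinoma line that carries a mutated EGFR, the receptor for epidermal growth factor. The study sequenced RNA depleted of ribosomal RNA from 3 untreated lines to find circular RNAs (circRNAs) that differ between lung cancer and normal cells, and 2 of its 3 libraries are used here. Both lines were grown in DMEM with fetal bovine serum, each is a single line standing for its class, and each has 1 library. A gene was compared when its name occurred once in the table, was not a number and its value was over 1 FPKM in either line. FPKM are fragment counts corrected for transcript length and library size. This rule kept 13138 genes of 20635 names, and the circRNAs of their host genes were read from the same libraries. With 1 library a line there is no replicate error to compare a difference with, so no test was made.

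Epithelial cells are held together by E-cadherin, claudins and desmosomes and carry a skeleton of keratins, and regulators such as GRHL2 and the ESRP splicing factors keep this program running. Mesenchymal cells instead use N-cadherin, vimentin and contractile proteins, under transcription factors of the ZEB, SNAI and TWIST families. EGFR signals through the MAPK cascade, whose own targets include phosphatases and Sprouty proteins that damp it.

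Nearly all low values in the mRNA table stand at exactly 1. Of the 20494 names that were usable, 8915 stood at 1 in BEAS-2B and 8802 in HCC827, and a few lay just under it (lowest 0.995). Genes that every cell uses are also listed at 1. Of 95 genes of the ribosome, the proteasome and the respiratory chain, 5 stood at 1 in BEAS-2B and 7 in HCC827, among them RPL18 in BEAS-2B and COX5A in HCC827. A gene is therefore called listed at 1, and this value was not read as absence of its mRNA. Differences are HCC827 minus BEAS-2B on the log2(FPKM + 1) scale, where a low gene shows less than its true ratio. The table holds no counts, so the depth of either library is unknown.

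Most genes differed by under 4-fold and a minority by more. Over the 13138 genes the median difference was -0.14, with quartiles at -0.73 and 0.48. At a 4-fold difference of FPKM + 1, 493 genes (3.75% of those compared) were higher in HCC827 and 452 (3.44%) were lower. The Spearman correlation of the levels across these genes, which share their library and are not replicates, was 0.659. Of the higher genes, 267 (54.2%) were listed at or under 1 in BEAS-2B, and of the lower genes, 230 (50.9%) were in HCC827. The count thus rests in large part on genes at that value in the other line. The share called also rose with level. Where the larger value was at most 10 FPKM (7586 genes), 1.29% were higher and 1.29% lower. Where it was over 100 FPKM (407 genes), 10.6% were higher and 8.35% lower. With 1 FPKM added, a gene listed at 1 in one line had to reach about 7.01 FPKM in the other to be called. The low share at low levels was thus in part fixed by the scale, and the rise was not read further. When a level over 1 was asked of both lines, 226 genes were higher and 222 lower. Just inside the 4-fold limit lay CGB8, at 1 FPKM in BEAS-2B against 7.01 FPKM in HCC827, and just outside lay SOX4, at 5.46 and 24.9 FPKM. At the lower end, DCAF8 (28.4 and 6.35 FPKM) was inside and SIPA1L2 (6.996 and 1 FPKM) outside.

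**Figure D1:**
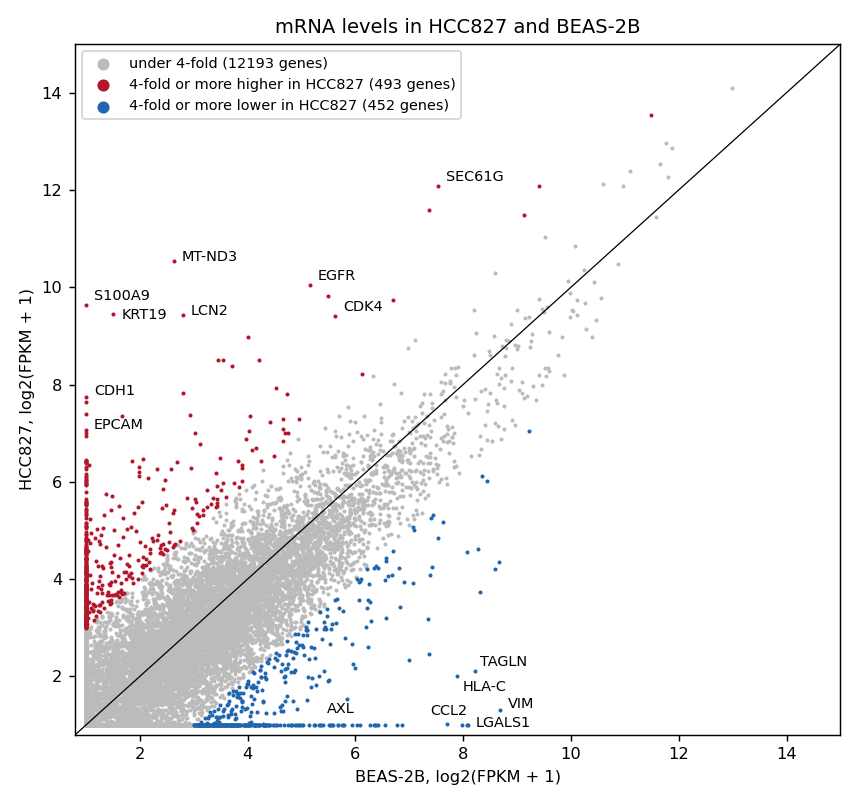
Level of each of the 13138 compared genes in BEAS-2B (horizontal axis) and HCC827 (vertical axis), both as log2(FPKM + 1), with the line of equal values in black. The column of points at the left edge and the row at the bottom are genes listed at 1 FPKM in BEAS-2B or in HCC827, and 493 genes lie 4-fold or more above the line and 452 below it.

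The largest difference upward was that of S100A9, which encodes a calcium-binding protein of inflamed epithelia and neutrophils. It was listed at 1 FPKM in BEAS-2B against 792 FPKM in HCC827, a difference of 8.63. KRT19, a keratin of simple epithelia, stood at 1.84 FPKM in BEAS-2B against 697 FPKM in HCC827 (7.94), and MT-ND3, a mitochondrially encoded subunit of respiratory complex I, at 5.18 against 1484 FPKM (7.91). Lipocalin 2 (LCN2), an iron carrier that keeps iron from bacteria, was at 5.96 and 690.0 FPKM (6.63). In HCC827, 256 genes were over 100 FPKM, S100A9, KRT19, MT-ND3 and LCN2 among them, while in BEAS-2B these stood between 1 and 5.96 FPKM. FGB, the beta chain of fibrinogen, was listed at 1 and 215 FPKM, and DEFB4A, an antimicrobial defensin, at 1 and 133 FPKM. CDH1, which encodes E-cadherin, was listed at 1 and 198 FPKM (6.63), and the adhesion molecule EPCAM at 1 and 166 FPKM (6.39). Of the 15 largest differences, 11 had BEAS-2B at 1 FPKM. SPP1, which encodes the secreted matrix protein osteopontin, was at 2.19 and 162 FPKM. The junction protein CXADR, the sodium channel subunit SCNN1A, the membrane protein HAVCR1 and the apical trafficking protein MAL2 were listed at 1 FPKM in BEAS-2B and between 84.0 and 85.9 FPKM in HCC827. RPL29, a ribosomal protein gene, was also among the 15, at 1 and 127 FPKM.

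Of the 15 largest differences downward, 4 (VIM, LGALS1, TAGLN and MYL9) were of members of the list of mesenchymal genes. VIM, which encodes the intermediate filament vimentin, stood at 411 FPKM in BEAS-2B against 1.47 FPKM in HCC827, a difference of -7.38. The chemokine gene CCL2 was at 269.9 FPKM and listed at 1 (-7.08), and LGALS1, which encodes the sugar-binding galectin 1, at 269 FPKM and 1 (-7.07). TAGLN, an actin-binding protein of smooth muscle, was at 297 and 3.31 FPKM (-6.11). The metallothionein MT1E was at 251 FPKM in BEAS-2B and UCHL1, a ubiquitin hydrolase of neurons, at 207 FPKM. In HCC827 these stood at 1 and 1.02 FPKM. HLA-C, a class I molecule that presents peptides, was at 234 and 3.01 FPKM (-5.88). The rest of the 15 were at 76.6 to 115 FPKM in BEAS-2B and listed at 1 in HCC827, namely CLDN11, HIST1H2BE, CPA4, IGFBP7, KRT17, SRGN, MYL9 and PABPC1. Fragments of KRT16 and KRT17, of DEFB4A and its copy, and of metallothionein, HLA and histone genes are shared with near-identical genes, and how these were assigned is not stated, so single values in these families are uncertain.

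**Figure D2:**
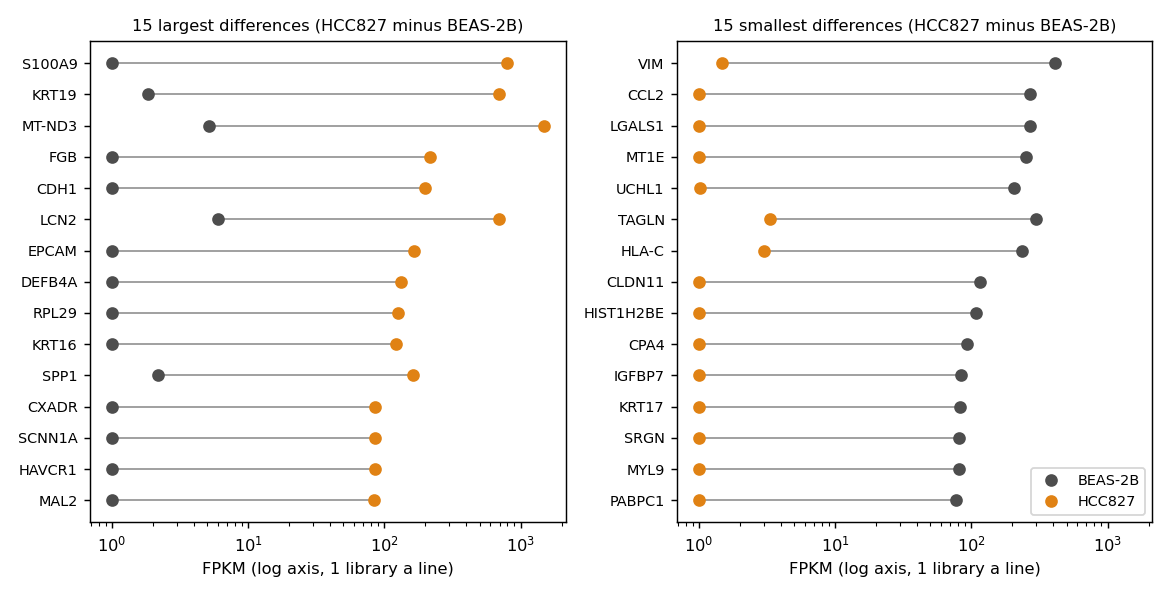
Level in FPKM (log axis) of the 15 genes with the largest and the 15 with the smallest difference, with BEAS-2B in grey and HCC827 in orange, 1 library a line. Of the 15 genes on the left, 11 are at 1 FPKM in BEAS-2B, and VIM and TAGLN on the right are at 1.47 and 3.31 FPKM in HCC827.

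Genes were then read in lists by function, with a member counted from a 2-fold difference of FPKM + 1. Of all genes compared, 12.9% were higher and 16.6% lower at 2-fold, and each list's median is to be read against the overall median of -0.14. A member listed at 1 in BEAS-2B was compared only through its HCC827 value and could not be lower. The reverse held for members listed at 1 in HCC827. Counts and medians of lists with many such members are therefore in part fixed by the filter. Among 22 epithelial junction genes compared, 15 were higher in HCC827 and 2 lower, with a median difference of 1.63. Their summed level was 92.3 FPKM in BEAS-2B against 865 FPKM in HCC827. P-cadherin (CDH3) was listed at 1 and 67.5 FPKM, the claudins CLDN4 and CLDN7 at 1 and 63.3 FPKM and at 1 and 83.5 FPKM, and the desmosomal cadherin DSG2 at 14.6 and 118 FPKM. The exceptions were CLDN1, at 15.1 and 5.04 FPKM, and the desmosomal cadherin DSC3, at 3.51 and 1.03 FPKM. Occludin (OCLN), a tight junction protein, stood at 10.4 and 25.7 FPKM.

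Regulators of the epithelial state were nearly all higher. Of 18 compared, 16 were higher in HCC827 and none was lower, with a median of 2.69. Most of them were listed at 1 in BEAS-2B and could not have been lower. Of those over 1 FPKM there, ESRP2, ELF3, SPINT1 and SPINT2 were higher and KLF5 stayed under 2-fold. The splicing factor genes ESRP1 and ESRP2 were at 1 and 49.3 FPKM and at 3.12 and 15.1 FPKM. GRHL2, a Grainyhead transcription factor of epithelia, was listed at 1 and 12.7 FPKM, and the ETS factors ELF3 and EHF at 13.1 and 84.7 FPKM and at 1 and 38.8 FPKM. The membrane proteases matriptase (ST14) and prostasin (PRSS8) were at 1 and 60.5 FPKM and at 1 and 17.5 FPKM. Their inhibitors SPINT1 and SPINT2 were at 1.26 and 27.9 FPKM and at 4.55 and 64.8 FPKM. These proteases and their inhibitors were thus all higher together. KLF5, at 23.2 and 43.2 FPKM, and TMPRSS4, at 1 and 2.09 FPKM, stayed under 2-fold.

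The E-box CACCTG, read as CAGGTG on the other strand, is the motif that ZEB and SNAI repressors bind. It was searched on both strands in the 250 bases before each gene start in the RefSeq promoter table (GRCh38.p14), where 17.5% of 35116 windows held at least 1 and 0.122% held 4 or more. Of the 21 junction and regulator genes that were 4-fold higher in HCC827, 11 had an entry, and 8 of these held an E-box before a start. Of all genes in that table, 20.6% held one before any of their starts. Of the 12 mesenchymal genes that were 4-fold lower, 8 had an entry and 1 held an E-box. As under 80% of either list had an entry, no comparison was drawn from these counts. Binding of the repressors was not measured, and their part in the differences was not tested. The windows of CRB3, a polarity protein (1 and 9.05 FPKM), CLDN7, DSG2 and the trafficking GTPase RAB25 (1 and 20.4 FPKM) are shown as examples, chosen after their values were seen, with each E-box in capitals. They lie at chr19:6464021-6464270 (plus strand), chr17:7262479-7262728 (minus), chr18:31497927-31498176 (plus) and chr1:156060910-156061159 (plus) and hold 5, 4, 2 and 1 E-boxes. CLDN7 has 2 starts in the promoter table, and the window was picked by its number of E-boxes, so its count is not that of a typical window.
CRB3: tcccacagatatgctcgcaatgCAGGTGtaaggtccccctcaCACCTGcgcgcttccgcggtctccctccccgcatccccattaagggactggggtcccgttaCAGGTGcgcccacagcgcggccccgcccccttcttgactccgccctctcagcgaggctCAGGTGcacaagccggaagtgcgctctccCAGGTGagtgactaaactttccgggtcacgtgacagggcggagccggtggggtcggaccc
CLDN7: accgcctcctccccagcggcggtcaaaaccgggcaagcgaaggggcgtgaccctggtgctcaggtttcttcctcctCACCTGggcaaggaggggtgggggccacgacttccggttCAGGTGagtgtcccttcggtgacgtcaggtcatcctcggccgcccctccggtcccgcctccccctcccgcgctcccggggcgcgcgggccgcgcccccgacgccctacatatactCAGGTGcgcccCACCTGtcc
DSG2: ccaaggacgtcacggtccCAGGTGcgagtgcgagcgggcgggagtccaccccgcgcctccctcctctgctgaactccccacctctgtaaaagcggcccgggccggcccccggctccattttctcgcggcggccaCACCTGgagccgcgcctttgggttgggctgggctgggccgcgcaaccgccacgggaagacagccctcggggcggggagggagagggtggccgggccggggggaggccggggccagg
RAB25: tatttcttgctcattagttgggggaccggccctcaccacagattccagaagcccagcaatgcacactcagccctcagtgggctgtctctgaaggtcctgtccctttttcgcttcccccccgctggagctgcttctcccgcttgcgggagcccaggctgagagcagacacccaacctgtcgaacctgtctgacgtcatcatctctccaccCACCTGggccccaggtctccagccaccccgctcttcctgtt

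ZEB1, ZEB2 and TWIST1 were lower in HCC827, although from low levels. ZEB1 was at 5.95 FPKM in BEAS-2B, ZEB2 at 8.94 FPKM and TWIST1 at 7.26 FPKM, and all were listed at 1 in HCC827. SNAI1 stood at 2.99 and 2.91 FPKM, SNAI2 at 4.17 and 1.74 FPKM and TWIST2 at 3.78 and 4.28 FPKM, all under 2-fold. Of 18 mesenchymal genes compared, 13 were lower in HCC827 and none was higher, with a median of -2.50. N-cadherin (CDH2) was at 31.3 FPKM and listed at 1, and the receptor kinase AXL at 50.2 FPKM and 1. The tropomyosins TPM1 and TPM2 were at 184 and 27.8 FPKM and at 163 and 4.52 FPKM, and the actin-binding calponin CNN3 at 94.2 and 8.25 FPKM. The summed level of the list was 1664 FPKM in BEAS-2B against 75.8 FPKM in HCC827.

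Most matrix proteins were lower in HCC827. Of 22 compared, 15 were lower in HCC827 and 2 higher (median -1.93). COL8A1 and COL12A1, chains of short and fibril-associated collagens, were at 46.7 and 46.0 FPKM and listed at 1. The basement membrane collagen COL4A1 was at 35.1 and 2.44 FPKM, fibrillin 1 (FBN1) at 21.4 and 1.36 FPKM, lysyl oxidase (LOX), which links collagen fibres, at 41.9 and 3.29 FPKM, and fibronectin (FN1) at 141 and 39.4 FPKM. Tenascin C (TNC), an anti-adhesive matrix protein, and COL17A1, a collagen of epithelial anchoring junctions, were the 2 that were higher, at 29.9 and 156 FPKM and at 1 and 4.51 FPKM. TGFBI at 171 and 197 FPKM and CCN1 at 226 and 245 FPKM stayed under 2-fold. Fibroblast markers moved with these lists. All 5 compared were lower (median -2.75), including THY1, at 44.5 FPKM and 1, and PDGFRB, at 12.5 FPKM and 1. The other 7, among them DCN, LUM, FAP and COL3A1, were listed at 1 in both lines. The part of any fibroblast RNA in these differences was not tested.

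Integrin and laminin genes were mixed. Of 21 integrin and laminin genes, 8 were higher and 3 lower in HCC827 (median 0.35). LAMA3 and LAMB3, laminin chains of epithelial basement membranes, stood at 4.67 and 23.2 FPKM and at 2.47 and 21.5 FPKM. ITGB6, an integrin chain limited to epithelia, was listed at 1 and 33.0 FPKM, and ITGA2, part of a collagen receptor, was at 2.24 and 28.0 FPKM. Of the chains of laminin receptors, ITGA6 was at 13.4 and 53 FPKM, while ITGA3 (20.2 and 22.7 FPKM) and ITGB4 (14.1 and 15.5 FPKM) stayed under 2-fold. ITGB3 and ITGA4 were lower, at 12 and 5.61 FPKM in BEAS-2B and listed at 1. Proteases and their inhibitors were mixed, with 4 higher and 6 lower of 15. The matrix protease MMP7 was at 1 and 34.6 FPKM, MMP14 at 54.5 FPKM and 1, and the plasminogen activator PLAU at 42.1 and 138 FPKM.

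Keratins split by member. Of 8 compared, 5 were higher and 3 lower (median 1.15), and the others, KRT5 and KRT14 of basal cells included, were listed at 1 in both lines. KRT8 was at 282 FPKM in BEAS-2B against 91.6 FPKM in HCC827, KRT7 at 74.4 and 26.3 FPKM, and KRT17 at 82.1 FPKM and 1. KRT16 was listed at 1 and 122 FPKM. BEAS-2B thus held KRT7 and KRT8, keratins of simple epithelium. KRT18 and KRT19 stood at 1.61 and 1.84 FPKM there, CDH1, EPCAM, CLDN4 and CLDN7 were all listed at 1 there and VIM was high. The epithelial markers of BEAS-2B were thus mixed. As values at or near 1 were not read as absence, they were read neither for nor against its label as bronchial epithelium.

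HCC827 expressed some markers of the distal lung, and others were listed at 1. NKX2-1, the lung lineage transcription factor, was at 1 FPKM in BEAS-2B against 9.92 FPKM in HCC827, and NAPSA, the aspartic protease used to recognise lung adenocarcinoma, at 1 and 34.5 FPKM. LPCAT1, which makes the lipid of surfactant, was at 10.7 and 363 FPKM. All 5 surfactant protein genes were listed at 1 in both lines. Of the 8 alveolar type 2 genes compared, 3 were higher and none lower (median 0.35). Airway secretory genes were higher in 9 of 10 compared (median 1.85), though those listed at 1 in BEAS-2B could not have been lower. They included the gel-forming mucin MUC5B, at 1 and 48.0 FPKM, the membrane mucin MUC1, at 16.9 and 102 FPKM, and AGR2, which folds mucins, at 1 and 20.3 FPKM, while 15 members such as SCGB1A1 and MUC5AC were listed at 1 in both. Of 19 lineage transcription factors, 9 were higher and 4 lower (median 0.59). PAX8 was at 1 and 27.4 FPKM and HNF4G at 1 and 17.7 FPKM, factors better known from kidney, thyroid and gut. IRX2 (10.4 FPKM and 1) and SOX9 (5.08 FPKM and 1) were lower. Of 19 HOX genes, 6 were higher and 1 lower, none above 9.88 FPKM.

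EGFR and most of its relatives that could be compared were higher. EGFR stood at 34.6 FPKM in BEAS-2B against 1058 FPKM in HCC827 (4.90), and of 9 receptors and ligands compared 6 were higher and 1 lower (median 2.14). The partner receptors ERBB2 and ERBB3 were at 4.53 and 23.5 FPKM and at 8.54 and 56.1 FPKM. The ligands EREG, AREG and BTC were listed at 1 in BEAS-2B and stood at 70.5, 46.3 and 7.24 FPKM in HCC827. HBEGF was at 9.07 FPKM and 1. The other 5 members of the list, ERBB4, EGF, EPGN, NRG1 and NRG2, were listed at 1 in both lines. Of 22 MAPK feedback and target genes, 10 were higher and none lower (median 0.95). The feedback inhibitors SPRY1 and DUSP6 were at 1.04 and 22.9 FPKM and at 2.14 and 12.4 FPKM, and ERRFI1, which inhibits EGFR itself, at 24.1 and 135 FPKM. SPRY4 (2.32 and 1.63 FPKM) and DUSP4 (5.38 and 2.61 FPKM) did not share this. Other receptor kinases were split, with 5 higher and 4 lower of 20. MET, the receptor for hepatocyte growth factor, was at 25.4 and 223 FPKM, and PDGFRB and FGFR1 (5.68 and 1.79 FPKM) were lower.

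Genes on the lists of TGF-beta and BMP genes and of Wnt genes, receptors included, were more often lower than higher. Of 22 TGF-beta and BMP genes, 8 were lower and 2 higher (median -0.66), with TGFB2 at 45.7 and 6.81 FPKM, the ligand BMP4 at 8.57 FPKM and 1, and the BMP antagonists GREM1 and NOG at 12.4 and 7.78 FPKM and listed at 1. BMP2 was at 1 and 6.42 FPKM, and ID1, a target of BMP signals, at 79.3 and 287 FPKM. Of 14 Wnt genes, 5 were lower and 2 higher, with a median of -0.23 near that of all genes (-0.14). The antagonists DKK1 and DKK3 were at 18.5 and 19.1 FPKM and listed at 1, and the ligand WNT7B at 2.11 and 20.6 FPKM.

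Genes of mitosis were lower in HCC827 almost throughout. Of 30 compared, 25 were lower and none was higher, with a median of -1.57. The mitotic kinesin KIF20A was at 169.7 and 18.1 FPKM, the spindle protein PRC1 at 65.6 and 10.9 FPKM, cyclin B1 (CCNB1) at 136 and 36.5 FPKM and the proliferation marker MKI67 at 39.1 and 15.1 FPKM. AURKB (14.9 and 15.3 FPKM) was among the 5 that stayed under 2-fold. Of 29 DNA replication genes, 9 were lower and 1 higher (median -0.59), with MCM10 at 11.4 and 1.23 FPKM. The exception, the helicase subunit MCM7, was listed at 1 and 19.3 FPKM. Replication-dependent histones, read after their position had been seen, were lower in 43 of 65 genes of their clusters and higher in 1 (median -1.25). Their mRNAs lack a poly(A) tail and are captured by RNA depleted of ribosomal RNA.

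Most genes on the list of G1 cyclins and inhibitors were lower too. Of 16 compared, 9 were lower and 3 higher (median -1.35), and the 3 were the kinases CDK4, at 48.1 and 677 FPKM, and CDK6, at 9.73 and 21.2 FPKM, and their cyclin CCND1, at 8.06 and 42.0 FPKM. The CDK inhibitors CDKN2C and CDKN1A were at 37.4 and 2.53 FPKM and at 12.9 FPKM and 1, and RB1, the substrate of CDK4 and CDK6, at 38.8 and 9.12 FPKM. Other kinases and cyclins did not share the direction of these 3, with CDK2 at 65.9 and 14.3 FPKM and CCNE2 at 19.5 and 6.63 FPKM.

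Metabolic genes differed by pathway. Of 17 hypoxia response genes, 9 were higher and 1 lower (median 1.13), with the oxygen sensor EGLN3 at 1.11 and 36.5 FPKM, VEGFA at 4.36 and 56.4 FPKM and ANGPTL4 at 1 and 16.5 FPKM. The carbonic anhydrase CA9, the best-known marker of that response, was at 17.3 FPKM in BEAS-2B and listed at 1 in HCC827. Of 21 glycolysis genes, 4 were higher and 2 lower (median -0.26), with PGK1 at 125 and 429 FPKM and ALDOA at 416 and 116 FPKM. Cholesterol synthesis had 7 lower and 2 higher of 22 (median -0.48), with IDI1 at 13.2 FPKM and 1. Of 22 NRF2 targets 5 were higher and 5 lower, the transporters ABCC2 (1 and 16.4 FPKM) and ABCC3 (1.76 and 41.9 FPKM) among the higher. Of 4 metallothioneins compared, MT1A was higher, MT1E lower and MT1X at 78.2 and 86.7 FPKM. Of 28 nuclear genes of the respiratory chain, 6 were lower and none higher (median -0.40).

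Mitochondrially encoded genes were among the most abundant mRNAs of both lines and took more of the HCC827 total. The 13 genes made up 10.6% of the summed FPKM in BEAS-2B and 26.4% in HCC827, and 11 of them were 2-fold higher (median 1.51). MT-CO1, a subunit of cytochrome oxidase, was at 8148 and 17532 FPKM. MT-CYB was at 164 and 3082 FPKM, and MT-ND3 at 5.18 and 1484 FPKM, far below its neighbours in BEAS-2B. RNA quality is not recorded in the table, and its part in these values was not tested. An alternative added after the values were seen left these genes out and rescaled both columns to a common total. It gave 873 genes 4-fold higher and 577 lower. The common total lay above both column sums, so the constant added to each FPKM weighed less there. With no constant added and no rescaling, the counts were 870 and 845. The 873 and 577 were therefore not read as an effect of the mitochondrially encoded genes. Ribosomal proteins had 8 higher and 2 lower of 39, with a median of 0.05 that turned negative when both full columns were rescaled to a common total, and 23 of 25 proteasome subunits stayed under 2-fold.

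Antigen presentation was lower while other immune genes were mixed. Of 17 HLA class I presentation genes, 9 were lower and 1 higher (median -1.35). HLA-B was at 317 and 12.2 FPKM, and B2M, the light chain that class I molecules share, at 655 and 205 FPKM. The transactivator of these genes, NLRC5, was at 12.9 FPKM and 1, the peptide transporter TAP1 at 10.2 and 1.65 FPKM and the immunoproteasome subunit PSMB9 at 73.7 and 9.58 FPKM. PSMB10 was the gene that was higher, at 8.89 and 23 FPKM. Interferon-stimulated genes had 5 higher and 4 lower of 26, with IFI44 at 3.12 and 46.7 FPKM and IFIT1 at 8.90 and 1.96 FPKM. Of 23 chemokines and cytokines, 7 were higher and 6 lower. CCL20, which attracts dendritic cells, was at 1.49 and 32.1 FPKM and CXCL5, which attracts neutrophils, at 1 and 16.3 FPKM, while IL6 was at 15.6 and 3.96 FPKM. The medians of the NRF2, interferon and cytokine lists lay near the overall median and changed sign with the scaling.

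Some liver-type secreted proteins, fibrinogen chains and a complement regulator among them, were higher. Of 20 complement and acute phase genes, 8 were higher and 3 lower (median 0.57). The fibrinogen chains FGA, FGB and FGG were listed at 1 in BEAS-2B and at 8.05, 215 and 26.6 FPKM in HCC827. The complement regulator CFI was at 1.61 and 53 FPKM. All 5 hepatocyte markers compared were higher (median 2.18), 3 of them the fibrinogen chains, and the other 9, with ALB, APOA1 and TTR among them, were listed at 1 in both lines. Of the leukocyte markers, PTPRC, CD3E and MS4A1 were listed at 1 in both, and CD68, a lysosomal protein, was at 4.09 and 29.1 FPKM. Of 2 endothelial and 3 neuroendocrine markers compared, none differed by 2-fold. Of 23 cancer-testis genes, 19 were listed at 1 in both, and XAGE1B, which has near-identical copies, was at 1 and 61.3 FPKM.

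Among 25 drivers and suppressors of lung adenocarcinoma, 5 were higher and 6 lower (median -0.27). The higher ones were EGFR, MET, ERBB2, NKX2-1 and MYC, the last at 15.2 and 31.4 FPKM. The lower ones included RB1, MDM2 (33.4 and 6.80 FPKM), NF1 (8.12 and 2.22 FPKM), PIK3CA (11.8 and 4.05 FPKM) and SETD2 (20.2 and 8.33 FPKM). BRAF, at 5.67 and 5.78 FPKM, was nearly equal in both lines.

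**Figure D3:**
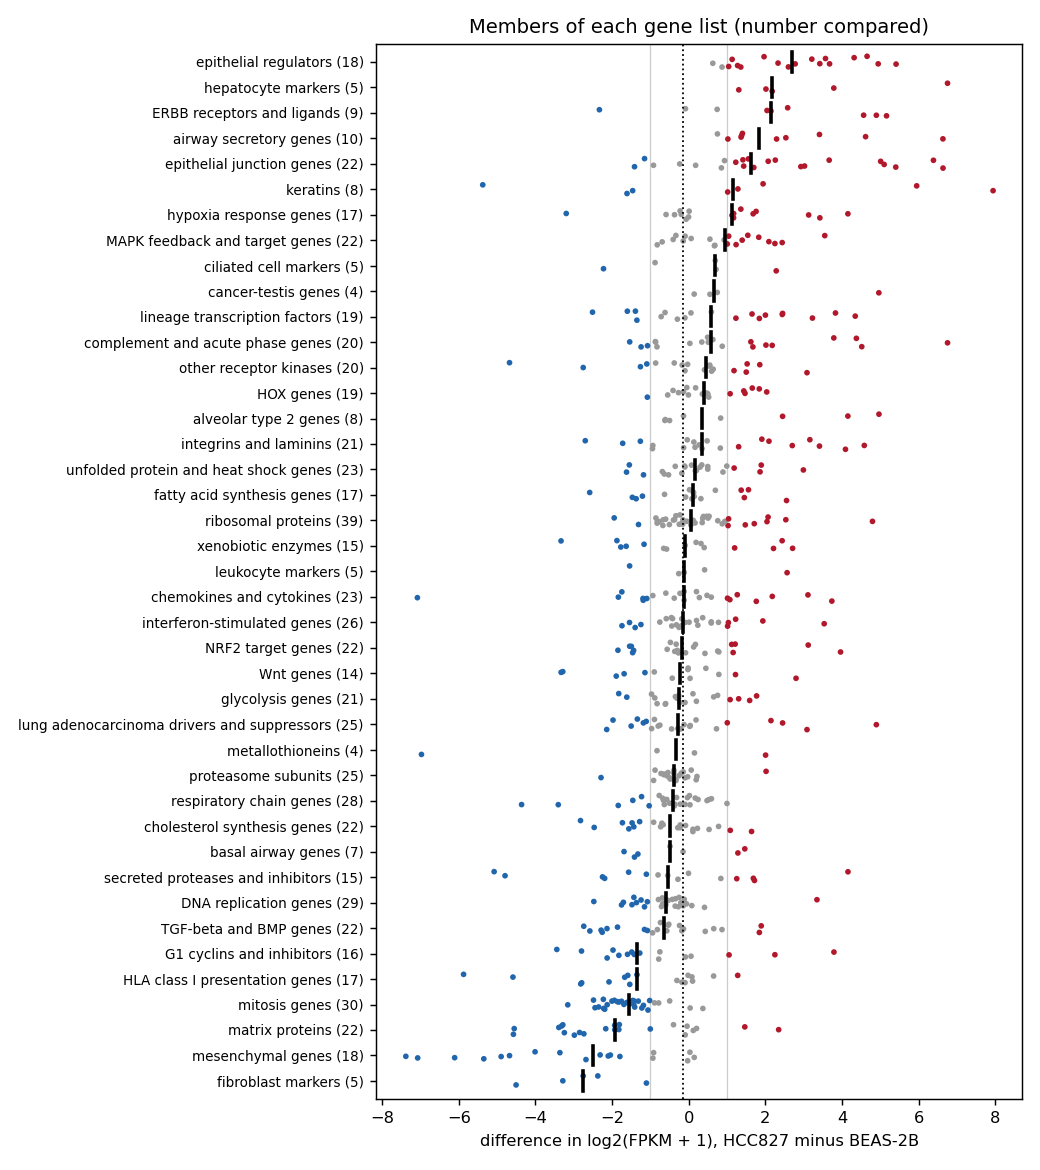
Difference in log2(FPKM + 1), HCC827 minus BEAS-2B, of each member of 41 gene lists with at least 4 genes compared, sorted by their median (black bar), with members 2-fold or more higher in red and lower in blue. Grey lines mark 2-fold and the dotted line the overall median of -0.14. Epithelial regulators stand highest with a median of 2.69, and fibroblast markers and mesenchymal genes lowest with -2.75 and -2.50.

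Some of the differences lay side by side on chromosomes. Medians of 25 neighbouring compared genes ran from -0.74 to 0.50 between their 5th and 95th percentiles. The highest, 2.11, was on chromosome 8 from RDH10 to ZFAND1, where 19 of 25 genes were higher and none lower. In it RDH10, a retinol dehydrogenase, was at 2.94 and 72.6 FPKM, the vesicle protein TPD52 at 9.60 and 71.9 FPKM, and HNF4G was a member. The next, 1.88, was on chromosome 7 from PURB to CHCHD2, around EGFR. SEC61G, a subunit of the protein channel of the endoplasmic reticulum, stood at 183 and 4354 FPKM there, LANCL2 at 7.11 and 128 FPKM, VOPP1 at 17.6 and 363 FPKM and IGFBP3 at 103 and 856 FPKM. In a window of 50 genes this value was 0.30, so the raised run was short. The third, on the X chromosome from RNF128 to CXorf61, had a median of 1.24, and CXorf61, a cancer-testis gene, was at 1 and 46.5 FPKM.

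The lowest run, -1.79, was on chromosome 10 from CAMK1D to PTPLA, with 18 of 25 genes lower and none higher. VIM lies in it, together with OPTN, an autophagy receptor (13 FPKM and 1), MCM10, NMT2, a myristoyl transferase (19.4 and 1.37 FPKM) and SEPHS1 (33.0 and 6.79 FPKM). These neighbours were lower by less than VIM, and the run was picked for its low median. The next were on chromosome 6, at -1.40 and -1.30, and consisted mainly of histone genes, with HIST1H2AM at 1337 and 505 FPKM. Copy number was not measured here, and its part in these runs was not tested.

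**Figure D4:**
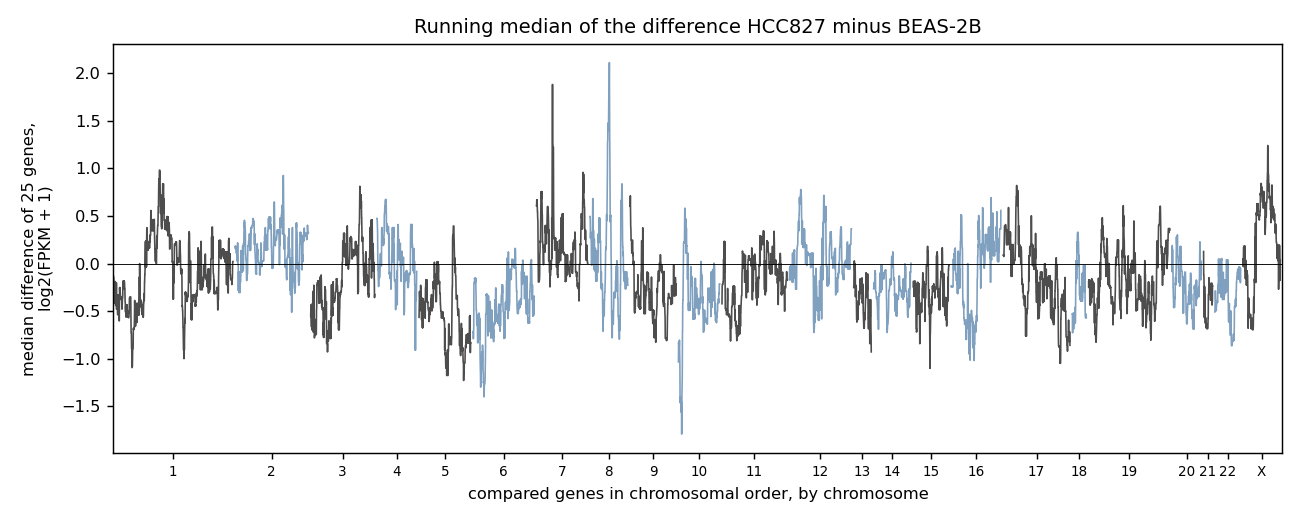
Running median over 25 neighbouring compared genes of the difference in log2(FPKM + 1), HCC827 minus BEAS-2B, with genes in chromosomal order and neighbouring chromosomes in alternating colours. The peaks on chromosomes 8 and 7 reach 2.11 and 1.88, and the lowest points, on chromosomes 10 and 6, reach -1.79 and -1.40.

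The circRNA table of the same libraries was read for the host genes of these mRNAs. Its values are TPM, which are shares of the library's total, and how linear host RNA was kept apart is not stated, so a circRNA value may hold linear RNA, which was not tested. The table listed 42706 circRNAs over 0 in BEAS-2B and 4937 in HCC827. Over the 2244 circRNAs above 5 TPM in both lines the median log2 ratio, HCC827 over BEAS-2B, was 1.58. At 4-fold, 40.8% of them were higher and 1.11% lower, so ratios are read against that shift. CircRNAs of hosts with a 4-fold higher mRNA had a median of 2.30 (101 circRNAs), those of hosts with a 4-fold lower mRNA 0.61 (42 circRNAs) and the rest 1.57 (1965 circRNAs). Of these groups, 71.3%, 26.2% and 49.9% lay above the overall median. Across the 2108 circRNAs with a compared host, the Spearman correlation of ratio and mRNA difference was 0.213. This is weak, and circRNAs of a host and the libraries are shared between the points. A circRNA of a 4-fold lower host that passed 5 TPM in both lines had to be present in HCC827. Of the hosts with a circRNA over 5 TPM in BEAS-2B, 58.6% of those with higher mRNA also had one in HCC827, against 34.5% of the rest and 17.5% of those with lower mRNA.

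**Figure D5:**
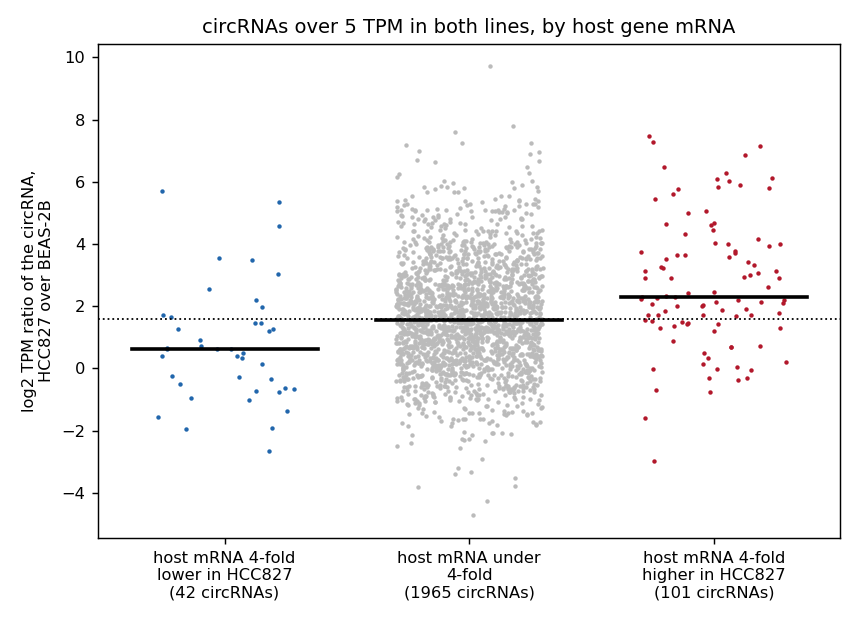
Log2 TPM ratio, HCC827 over BEAS-2B, of each circRNA over 5 TPM in both lines, grouped by the difference of its host mRNA, with the group median as a black bar and the overall median of 1.58 dotted. The medians are 0.61, 1.57 and 2.30 from left to right, and the groups overlap widely.

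Summed over all circRNAs of a host, several of the genes with the largest mRNA differences were as far apart. The circRNAs of VIM totalled 2107 TPM in BEAS-2B and 0 in HCC827, those of TAGLN 2098 TPM and 0, and those of LGALS1 978 TPM and 0. Those of CDH1 totalled 2.68 TPM in BEAS-2B against 1043 TPM in HCC827, of KRT19 7.39 and 734 TPM, of HAVCR1 3.94 and 2110.2 TPM and of SEC61G 135 and 2893 TPM. Those of KRT16 and KRT17 took the directions of their mRNAs, at 0.0474 and 260 TPM and at 110.4 and 0 TPM. Other hosts did not follow the listed value of their mRNA, which at 1 was not read as absence. The circRNAs of PABPC1, whose poly(A)-binding protein every cell needs, totalled 2395 and 2528 TPM while its mRNA was listed at 76.6 FPKM and 1. Those of RPL29 totalled 666 and 331 TPM while its mRNA was listed at 1 and 127 FPKM, and those of CXADR 10.7 TPM and 0 while its mRNA was at 1 and 85.9 FPKM. Of the 230 genes that were 4-fold lower and listed at or under 1 in HCC827, 15 (6.52%) had a circRNA over 5 TPM there, against 21.4% of all genes compared. Of the 267 higher genes at or under 1 in BEAS-2B, 50 (18.7%) had one there, against 57.4% of all genes compared.

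The circRNAs with the largest ratios came from hosts with and without a higher mRNA. The largest, hsa_circ_0061586 of RUNX1, was at 5.14 TPM in BEAS-2B against 4308 TPM in HCC827, with RUNX1 mRNA at 13.9 and 17.7 FPKM. Of the 10 largest, 3 had a host mRNA that was 4-fold or more higher, namely LCN2, CDK4 and the kinase SGK1. Among all 2108 circRNAs with a compared host, 101 had one that was 4-fold higher. The hosts CPVL (1 and 5.04 FPKM) and RBPMS (13.9 and 41.4 FPKM) were higher at 2-fold only, a limit at which the share over all circRNAs was not counted. hsa_circ_0027319 of CDK4 (chr12:58143236-58144548 in hg19) was at 9.33 and 1465 TPM. Among the 10 smallest, hsa_circ_0079267 of ACTB was at 540 and 20.3 TPM, and the mRNAs of ACTG1, at 3056 and 2788 FPKM, and TGFBI differed little. The host of hsa_circ_0037373, RPS2, had a higher mRNA value, at 9.78 and 44.3 FPKM, while the circRNA was at 333 and 42.3 TPM. ACTB mRNA, at 10.7 and 4.03 FPKM, stood far below ACTG1, and RPS2 far below the ribosomal protein gene RPL35 (1886 and 1429 FPKM). How fragments shared between near-identical sequences were assigned is not stated, so these host values are uncertain.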

How the data were processed

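RNA-Seq values of BEAS-2B and HCC827, 1 library per line, were used, and A549 was not. The deposited mRNA table gives the authors' FPKM. For them the study's methods name PEAT, STAR, Cufflinks, GENCODE 21 and the mouse build mm10, although the lines are human, while the submitters' processing notes list kallisto, sleuth, FastQC 0.11.7 and hg19, with no role for any. The circRNA values are TPM deposited by the authors with hg19 positions, and the program is not given in the sources used here. The methods name RNeasy and the labels Trizol for extraction. The authors' fold changes, predicted miRNA targets and networks were not used.

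Of 20635 names, 141 that were repeated or numbers were left out. Differences of log2(FPKM + 1) were computed with pandas 2.3.3 and numpy 2.4.6, Spearman correlations with scipy 1.17.1. Genes counted as higher or lower at 4-fold, and members of lists at 2-fold. CircRNAs were compared over 5 TPM in both lines. Named genes were the 15 largest and 15 smallest differences, the 10 highest levels per line, members of the lists, the 3 windows of 25 genes and the 10 circRNAs at each end, and genes just inside and outside the limit. Of 975 list entries 974 were matched, 11 by an older symbol. The RefSeq gene table (GRCh38.p14) gave names and gene order for 12724 compared genes. Promoter features could not be compared between groups, since only 68.6% of the higher and 79.4% of the lower genes had an entry. Members and lists were chosen with earlier results of these data known. No counting interval could be given without counts. The alternatives were other pseudocounts, filters, scalings, folds, circRNA limits and window sizes, and repeated names averaged. Some list members and 1 list are not reported here.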

Additional observations from a re-analysis of the deposited data

How the results depend on the processing

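With 1 library a line, leaving out a replicate was not possible, and the depth of the libraries is unknown. No paired analysis was possible because each line has 1 library and no test was run. The counts of genes 4-fold higher and lower depend on how low values are treated. They were 870 and 845 with no pseudocount, 179 and 128 with a pseudocount of 5, and 226 and 222 among genes over 1 FPKM in both lines, against 493 and 452. At 2-fold they were 1698 and 2181, and at 8-fold 187 and 126. Rescaling both columns to a common total gave 650 higher and 806 lower genes. Rescaling without mitochondrially encoded genes, added after the data were seen, gave 873 and 577. The common total lay above both column sums, so the pseudocount of 1 weighed less in both rescalings. The median ratio of genes over 1 in both lines was -0.21 on the log2 scale, and scaling by it moved the overall median difference from -0.14 to 0.03. The overall median moved by under 2-fold in all alternatives. Of 13 lists with a median of 2-fold or more, all kept their sign under every alternative that could be computed for them except without a filter, where 9 did. The median stayed at 2-fold or more in 9 of the 13 with a pseudocount of 5 (not in epithelial junction genes 0.98, keratins 0.68, hypoxia response genes 0.80 or G1 cyclins and inhibitors -0.88), in 9 of the 11 that could be computed over 1 FPKM in both lines (not in epithelial junction genes 0.93 or class I presentation genes -0.83), and in 5 of the 13 without a filter. Without it genes at 1 in both lines enter with a difference of 0, and the medians were 0 for keratins, airway secretory genes, fibroblast and hepatocyte markers, 0.37 for ERBB genes and -0.70 for matrix proteins. Over 5 FPKM in either line the medians were -4.01 for mesenchymal genes, 4.15 for alveolar type 2 genes and 1.84 for lineage transcription factors, and with a pseudocount of 5 that of fibroblast markers was -1.54. Of 43 lists, 5 changed the sign of their median under a scaling. None of the 30 genes with the largest and smallest differences changed direction under an alternative that kept it in the comparison. They were picked for large differences, which a pseudocount cannot reverse and these scalings shifted little, so this is no support for them. With a pseudocount of 5, 26 of the 30 moved by 2-fold or more. Only 8 of the 30 were over 1 FPKM in both lines. The window around EGFR had a median of 0.30 over 50 genes.

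The circRNA medians moved with the shift between the columns. Over 1 TPM in both lines the median of hosts with higher mRNA was 3.31. Minus the overall median, the groups of higher, other and lower hosts were at 0.71, -0.016 and -0.97. Over 5 TPM in either line with 1 TPM added they were at -2.68, -3.63 and -4.28, as most circRNAs listed in BEAS-2B are at 0 in HCC827. The gap between higher and lower hosts was 1.69, and between 1.60 and 2.62 under the alternatives. Leaving out 12 circRNAs that share both values with another, added after the data were seen, gave a gap of 1.83.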
